A study of Mus musculus with 6 samples.

Results

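The expression of 10 genes of the NF-κB system was followed in sorted mouse CD8 T cells: the subunit genes Rel, Relb, Nfkb1 and Nfkb2, the cytoplasmic inhibitor genes Nfkbia and Nfkbie, the nuclear regulator genes Nfkbid, Nfkbiz and Bcl3, and Tnfaip3. All 10 were found by symbol among the 17744 genes of the authors' table. They were chosen by family with earlier results of the same contrast known, so their differences between the groups are given as a description, and no p is given for any of them. All 10 passed the filter used here, an FPKM (fragments counted, scaled to transcript length and library size) of at least 1 in at least 3 libraries, and the lowest value of any of them in any library was 9.48 FPKM. The cells were sorted from spleen as CD45+ CD3+ CD8a+ cells, and 6 libraries were sequenced. The 3 control libraries come from animals labelled wild type and control. The 3 ultrasound libraries come from animals labelled with focused ultrasound irradiation, in which a transducer brings sound energy to a small volume of tissue, and that entry also fills their genotype field. The labels give no strain, age, sex, dose or time after exposure, and do not state whether the animals carried tumours. That the 3 libraries of a group come from separate animals is not stated either, so the spread between them may be partly technical.

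NF-κB is a family of dimeric transcription factors held in the cytoplasm of resting cells by inhibitors of the IκB family. Signals from the T cell receptor or from receptors of the TNF and Toll-like families activate the IκB kinase, which marks the inhibitors for destruction and lets the dimers enter the nucleus. The dimers then switch on, among many genes, their own inhibitors: Nfkbia, which encodes IκBα, and Tnfaip3, which encodes the ubiquitin-editing enzyme A20, are classical feedback genes of the pathway, and in T cells both restrain activation.

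Of the 10 genes, 7 had at least 1 promoter window in the RefSeq table (build GRCm38.p6, the assembly also called mm10, which the submitters' processing notes name). The windows were read over the 250 bases before the start site on both strands for the κB consensus, the degenerate 10-base motif bound by NF-κB dimers. At least 1 match was found for 6 of these 7 genes, Tnfaip3, Nfkbia, Nfkbid, Nfkbie, Rel and Nfkb2, and none for Bcl3. Among all 32851 RefSeq windows, 3.90% held a match, and 4.46% of the 27025 genes had at least 1 window with one. For each of the 6 genes 1 matching window is shown, to place these letters beside the values that follow, with the matches in capitals and the start site directly after the last base. A match is a description of the letters and shows no binding.

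Tnfaip3, chr10:19015411-19015660, minus strand: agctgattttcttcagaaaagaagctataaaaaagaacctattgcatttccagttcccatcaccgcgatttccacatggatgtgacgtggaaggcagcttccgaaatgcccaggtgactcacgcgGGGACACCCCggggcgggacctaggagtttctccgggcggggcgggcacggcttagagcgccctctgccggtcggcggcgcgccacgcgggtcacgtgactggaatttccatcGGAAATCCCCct
Nfkbia, chr12:55492648-55492897, minus strand: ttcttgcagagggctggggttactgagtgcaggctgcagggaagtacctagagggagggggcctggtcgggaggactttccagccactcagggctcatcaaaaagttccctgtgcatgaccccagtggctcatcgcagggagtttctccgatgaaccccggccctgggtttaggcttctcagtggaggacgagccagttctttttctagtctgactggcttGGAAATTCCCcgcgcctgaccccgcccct
Nfkbid, chr7:30422156-30422405, plus strand: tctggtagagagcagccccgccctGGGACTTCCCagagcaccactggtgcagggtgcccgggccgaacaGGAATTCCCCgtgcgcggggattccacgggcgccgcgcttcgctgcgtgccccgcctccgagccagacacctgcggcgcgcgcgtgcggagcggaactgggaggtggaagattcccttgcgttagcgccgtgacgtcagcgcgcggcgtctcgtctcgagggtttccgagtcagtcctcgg
Nfkbie, chr17:45555450-45555699, plus strand: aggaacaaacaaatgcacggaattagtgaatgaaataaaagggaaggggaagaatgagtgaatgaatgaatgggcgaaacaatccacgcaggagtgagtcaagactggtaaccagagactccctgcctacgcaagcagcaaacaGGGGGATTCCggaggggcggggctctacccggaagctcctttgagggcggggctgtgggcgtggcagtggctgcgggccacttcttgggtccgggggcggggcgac
Rel, chr11:23770970-23771219, minus strand: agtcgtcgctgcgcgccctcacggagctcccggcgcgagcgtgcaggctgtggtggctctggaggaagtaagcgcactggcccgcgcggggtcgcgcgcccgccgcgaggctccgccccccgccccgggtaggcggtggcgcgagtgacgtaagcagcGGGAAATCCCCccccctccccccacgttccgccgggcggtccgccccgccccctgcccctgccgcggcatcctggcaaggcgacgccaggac
Nfkb2, chr19:46304487-46304736, plus strand: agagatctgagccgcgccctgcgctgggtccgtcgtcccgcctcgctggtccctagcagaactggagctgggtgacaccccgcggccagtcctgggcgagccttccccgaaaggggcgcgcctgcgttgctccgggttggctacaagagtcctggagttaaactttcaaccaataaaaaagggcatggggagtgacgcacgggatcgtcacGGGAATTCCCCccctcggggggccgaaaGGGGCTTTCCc

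The nearest match to a start site began 11 bases upstream for Nfkb2, 12 for Tnfaip3, 29 for Nfkbia, 91 for Rel, 106 for Nfkbie and 181 for Nfkbid. Of the 3 RefSeq windows of Nfkb2 the one with 3 matches is shown, and the others hold 1 match each, starting 236 and 225 bases upstream. Of the 2 windows of Tnfaip3 and the 3 of Nfkbid, only the window shown for each gene held a match. In Rel and in Nfkb2 a pair of matches began 1 base apart and so overlapped. Genes whose groups did not overlap below (Tnfaip3, Nfkbia, Nfkbid, Rel) and genes whose groups did (Nfkbie, Nfkb2) both held matches.

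The libraries held 35024080 to 38113103 reads. Ultrasound 2 and ultrasound 3 stood apart from the other 4: mitochondrial genes took 0.937% to 0.954% of their reads, against 2.05% to 2.70% in the controls and 2.19% in ultrasound 1. Values of each gene are therefore given for every library, with the difference of ultrasound 1 alone from the controls and the difference without it. Markers of the sorted cells were present throughout: 7 of the 8 T cell markers are listed, at a summed 2261 to 2369 FPKM in controls and 1946, 2546 and 2306 in ultrasound 1, 2 and 3. Macrophage and monocyte markers summed to 303 to 673 FPKM in controls and 1777, 1834 and 3208 in ultrasound 1, 2 and 3, with 8 of 9 above every control. Neutrophil markers summed to 186 to 570 FPKM in controls, 2308 in ultrasound 1 and 632 and 663 in ultrasound 2 and 3. Of these markers 7 of 8 were above every control. B cell markers summed to 212 to 325 FPKM in controls, 160 in ultrasound 1 and 884 and 769 in ultrasound 2 and 3, with 0 of 7 above every control. No listed marker was at 0 in any library.

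Tnfaip3 and Nfkbia had the highest levels of the 10 genes in the controls and in ultrasound 1, and both were lower in the ultrasound libraries than in the controls. In ultrasound 2 and 3 Nfkb1, at 87.1 and 94.6 FPKM, was above Tnfaip3. Tnfaip3 (NCBI Gene 21929, chr10:19000910-19015410) stood at 388, 395 and 390 FPKM in control 1, 2 and 3 and at 190, 32.9 and 44.4 in ultrasound 1, 2 and 3. The controls were nearly identical, and every ultrasound library lay below them, ultrasound 1 at 48.7% of the control mean and ultrasound 2 and 3 at 8.42% and 11.3%. The means were 391 ± 3.77 and 89.2 ± 87.8 FPKM (SD, n = 3 each), a log2 difference of -2.56 ± 0.60 (standard error, on the log2(FPKM + 1) scale). For ultrasound 1 alone it was -1.03, and without ultrasound 1 it was -3.32. Between 5900 and 66149 reads per library lay behind these values.

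Nfkbia (NCBI Gene 18035, chr12:55489409-55492647) had 330, 328 and 355 FPKM in the controls against 238, 106 and 144 in ultrasound 1, 2 and 3. The groups did not overlap, and ultrasound 1 again lay between the controls and the other ultrasound libraries, at 70.6% of the control mean against 31.2% and 42.7%. The log2 difference was -1.13 ± 0.27, -0.50 for ultrasound 1 alone and -1.44 without it. Nfkbie, which encodes IκBε, another cytoplasmic inhibitor, did not share this pattern. It had 28.4, 25.7 and 30.7 FPKM in the controls and 23.1, 32.1 and 29.3 in the ultrasound libraries, with overlapping groups and a log2 difference of -0.02 ± 0.14. The 2 cytoplasmic inhibitors therefore parted: Nfkbia was 11.5 to 12.8 times as high as Nfkbie in the controls, 10.3 times in ultrasound 1, and 3.29 and 4.93 times in ultrasound 2 and 3.

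**Figure D1:**
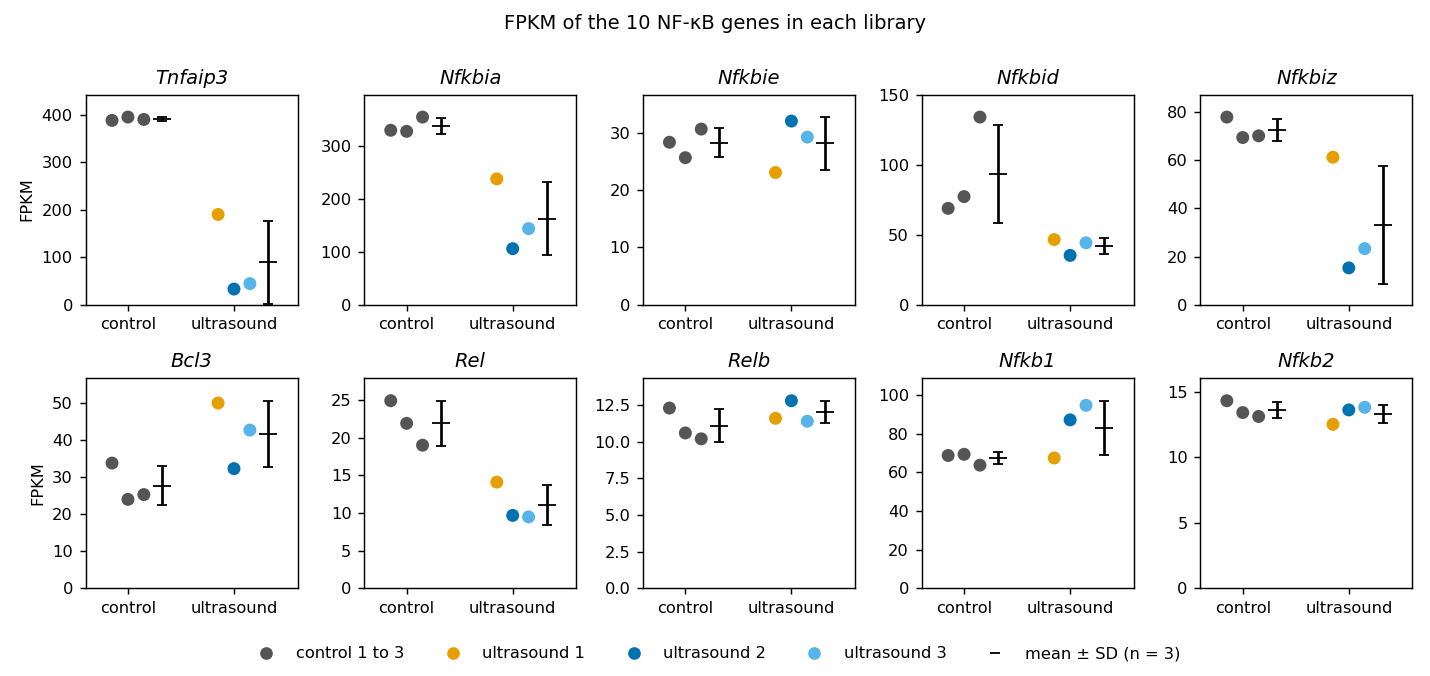
FPKM of each of the 10 genes, with 1 point per library and the mean with its SD (n = 3) beside each group; every vertical axis starts at 0. For Tnfaip3, Nfkbia, Nfkbid, Nfkbiz and Rel all ultrasound points lie below all control points, whereas the groups overlap for Nfkbie, Bcl3, Relb, Nfkb1 and Nfkb2.

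The 3 nuclear regulators went in different directions. These ankyrin-repeat proteins bind NF-κB dimers in the nucleus and adjust which genes they activate. Nfkbid, which encodes IκBNS, had 68.8, 77.2 and 134 FPKM in the controls against 46.5, 35.2 and 44.2 in ultrasound 1, 2 and 3. All ultrasound values were below all controls, but the controls themselves spread widely, with control 3 well above the others, and the log2 difference was -1.08 ± 0.25. Unlike Tnfaip3 and Nfkbia, Nfkbid was nearly as low in ultrasound 1, at 49.9% of the control mean, as in ultrasound 2 and 3, at 37.7% and 47.4%.

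For Nfkbiz, which encodes IκBζ, ultrasound 1 was instead near the controls and far from ultrasound 2 and 3. Nfkbiz stood at 78.0, 69.5 and 70.2 FPKM in the controls, at 61.3 in ultrasound 1 and at 15.3 and 23.3 in ultrasound 2 and 3. Ultrasound 1 lay just below the controls, at 84.4% of their mean, and the log2 difference of -1.33 ± 0.45 was -0.24 for that library alone. Bcl3, which encodes a partner of the dimers of the Nfkb1 and Nfkb2 products, lay higher on average, with 33.8, 24.0 and 25.3 FPKM in the controls and 50, 32.3 and 42.7 in the ultrasound libraries. Ultrasound 2 fell within the control range, so the groups overlapped, and the log2 difference was 0.57 ± 0.19. The ratio of Nfkbiz to Bcl3 was 2.31 to 2.89 in the controls against 1.22, 0.475 and 0.546 in ultrasound 1, 2 and 3.

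Among the subunit genes only Rel had ultrasound values entirely below the controls. Rel encodes c-Rel, a transactivating subunit prominent in lymphocytes. It had 24.9, 21.9 and 19.0 FPKM in the controls against 14.1, 9.68 and 9.48 in ultrasound 1, 2 and 3. The ultrasound mean was 50.6% of the control mean and the log2 difference -0.94 ± 0.17, or -0.59 for ultrasound 1 alone and -1.11 without it. Nfkb1, whose product is a precursor that is processed into a DNA-binding subunit, had 68.7, 69.3 and 63.7 FPKM in the controls and 67.4, 87.1 and 94.6 in the ultrasound libraries. Ultrasound 1 sat inside the control range while ultrasound 2 and 3 lay above it, and the log2 difference was 0.29 ± 0.14.

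Relb and Nfkb2, whose products form the main dimer of the alternative NF-κB pathway, differed little between the groups. Relb had 12.3, 10.6 and 10.2 FPKM in the controls and 11.6, 12.8 and 11.4 in the ultrasound libraries, a log2 difference of 0.11 ± 0.10. Nfkb2 had 14.3, 13.4 and 13.1 FPKM against 12.5, 13.6 and 13.8, a log2 difference of -0.03 ± 0.09. The groups overlapped for both genes.

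Rela and Nfkbib complete the subunits and cytoplasmic inhibitors. Rela encodes the transactivating subunit that pairs most often with the Nfkb1 product, and it had 51.3, 52.1 and 53.6 FPKM in the controls and 55.3, 58.6 and 61.9 in the ultrasound libraries. All ultrasound values of Rela were above the controls, but the log2 difference of 0.16 ± 0.08 did not pass (limma adjusted p 0.223). Nfkbib, which encodes IκBβ, had 23.1, 22.0 and 22.5 FPKM against 21.9, 24.5 and 27.3, with a log2 difference of 0.11 ± 0.10 (limma adjusted p 0.446). The ratio of Rel to Rela was 0.354 to 0.485 in the controls against 0.256, 0.165 and 0.153 in ultrasound 1, 2 and 3.

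**Figure D2:**
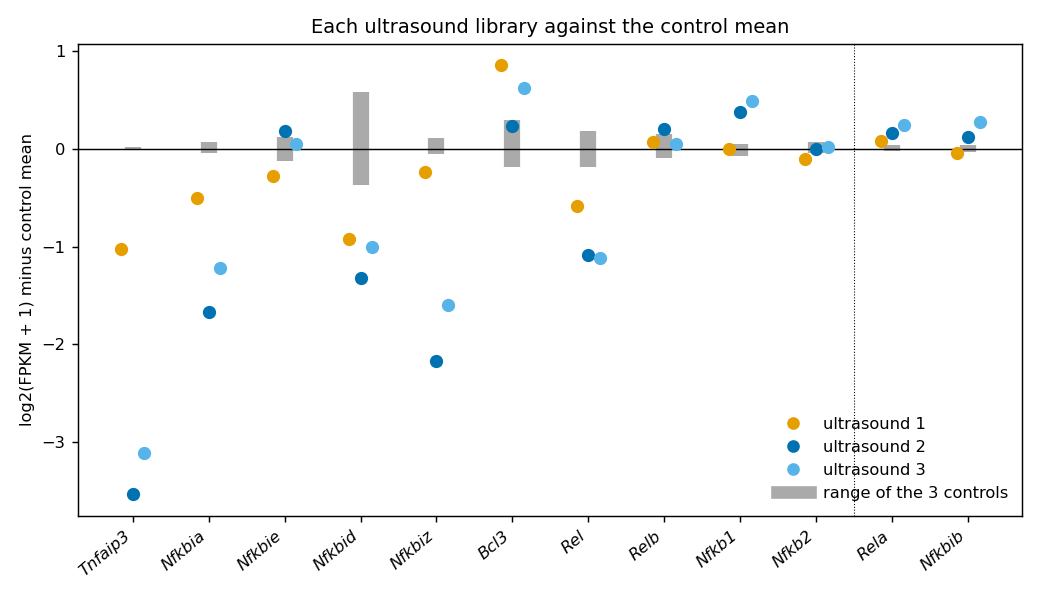
Deviation of each ultrasound library from the control mean, as log2(FPKM + 1), for the 10 genes and, right of the dotted line, Rela and Nfkbib; grey bars span the 3 controls. Ultrasound 1 lies between the controls and ultrasound 2 and 3 for Tnfaip3 (-1.03 against -3.53 and -3.11), Nfkbia, Nfkbiz and Rel, and above both for Bcl3 (0.85 against 0.23 and 0.62).

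In counts, 5 of the 10 genes had every ultrasound library below every control, where 8.96% of the 10655 genes tested did, and 0 had every ultrasound library above every control, where 25.9% did. In ultrasound 1 alone 7 of the 10 lay below every control, against 23.1% of all genes. Because the set was chosen with this contrast known, nothing is read from these counts. The median log2 difference was -0.48 over the 10 genes and 0.09 over all genes tested, or -0.02 over all genes with median-of-ratios scaling. With that scaling Tnfaip3 stood at -2.68, Nfkbia at -1.25, Nfkbid at -1.20, Nfkbiz at -1.46 and Rel at -1.05, while Relb turned to -0.0093.

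Immediate early and heat shock markers were also lower in the ultrasound libraries. All 8 of 8 immediate early genes, which respond within minutes to stimulation or to handling of cells, were below every control in every ultrasound library, at a summed 2234 to 2962 FPKM in controls and 1464, 521 and 928 in ultrasound 1, 2 and 3. Of 6 heat shock genes 5 were below every control, at a summed 1371 to 3380 FPKM in controls and 1108, 1135 and 1278 in ultrasound 1, 2 and 3. Unlike the immediate early sum, the heat shock sum did not set ultrasound 1 apart from ultrasound 2 and 3. The part of either list in the values of the NF-κB genes was not tested. In bulk samples fewer cells of a type and less RNA per cell cannot be told apart. The summed T cell markers were below every control in ultrasound 1, above every control in ultrasound 2 and within the control range in ultrasound 3.

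By mean level, the order within the set was not that of the controls in the ultrasound libraries. In the controls Tnfaip3 was highest and Nfkbia next, at 391 and 338 FPKM, with no overlap between their ranges. Nfkbid (93.2 FPKM) and Nfkbiz (72.6) followed with overlapping ranges, and then Nfkb1 at 67.3. Nfkbie, Bcl3 and Rel, from 28.3 to 21.9 FPKM, were not separated from their neighbours within this group of 3, while Nfkb2 at 13.6 and Relb at 11.1 came last with separate ranges. In the ultrasound libraries Nfkbia led at 163 ± 68.3 FPKM, with a range that overlapped that of Tnfaip3, whose range overlapped that of Nfkb1 at 83.0 ± 14.0. Nfkbid, Bcl3, Nfkbiz and Nfkbie lay from 41.9 to 28.2 FPKM with each range overlapping the next, and Nfkb2, Relb and Rel, from 13.3 to 11.1, did likewise.

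Summed over the 10 genes, the level was 1048, 1035 and 1111 FPKM in control 1, 2 and 3 and 715, 377 and 457 in ultrasound 1, 2 and 3. The 4 subunits contributed 106 to 120 FPKM in the controls and 106 to 129 in the ultrasound libraries, ranges that overlap. The inhibitors and regulators summed to 919 to 1005 FPKM in the controls against 610, 253 and 328 in ultrasound 1, 2 and 3, and stood at 7.71 to 9.48 times the summed subunits in the controls, at 5.77 times in ultrasound 1 and at 2.05 and 2.54 times in ultrasound 2 and 3. Tnfaip3 made up 35.1% to 38.2% of the summed level in the controls, 26.6% in ultrasound 1 and 8.74% and 9.70% in ultrasound 2 and 3. The share of Nfkbia stayed between 28.0% and 33.3% in all 6 libraries, and that of Nfkb1 went from 5.73% to 6.70% in the controls to 9.42%, 23.1% and 20.7%.

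**Figure D3:**
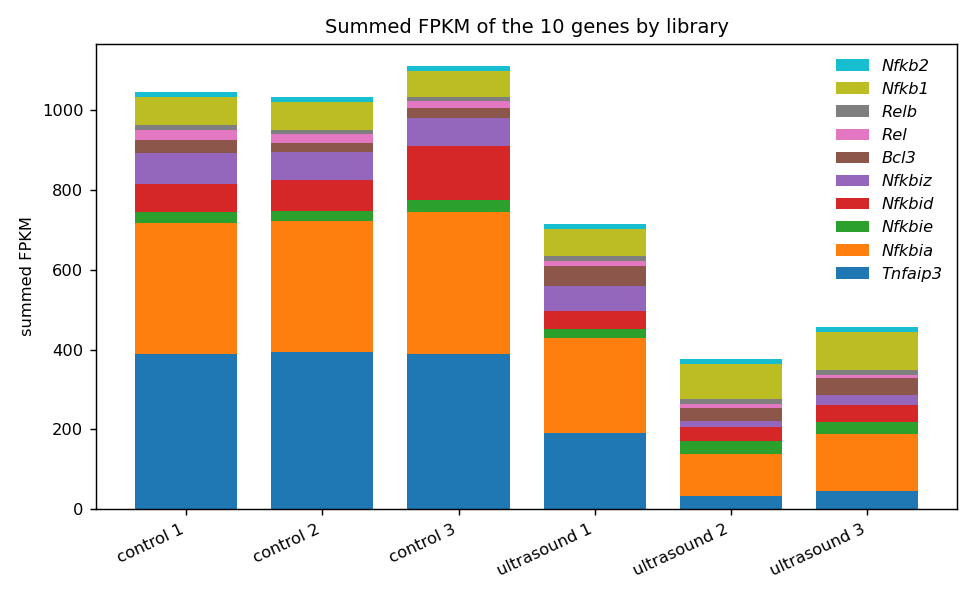
Summed FPKM of the 10 genes in each library, stacked by gene, on an axis from 0. The bars reach 1035 to 1111 FPKM in the controls against 715, 377 and 457 in ultrasound 1, 2 and 3, and Tnfaip3 makes up 35.1% to 38.2% of a control bar.

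The spread among the controls, which does not use the ultrasound libraries, also set the genes apart. Tnfaip3 had a coefficient of variation (SD over mean) of 0.965% over the 3 controls, and 1.42% of all genes tested had a lower one. Nfkb2, Nfkbia and Nfkb1 varied by 4.30%, 4.44% and 4.59%, with 21.8% to 24.2% of genes lower. Nfkbid varied most, by 37.8%, with 95.7% of genes lower, followed by Bcl3 at 19.2% and Rel at 13.5%. By mean level over the 6 libraries, Tnfaip3 and Nfkbia each exceeded 98% of the genes tested and Relb 52.4%.

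In the 3′ UTR of the transcript with the longest coding sequence in GENCODE M21, the nonamer TTATTTATT, an AU-rich element linked to rapid mRNA decay, occurred once each in Tnfaip3, Nfkbia and Rel and in none of the other 7 genes. At least 1 such nonamer was present in 7.07% of the 9907 tested genes with an annotated 3′ UTR. The shorter pentamer ATTTA, which the nonamer contains, occurred 12 times in the 5418 bases of the Rel 3′ UTR, 5 times in the 1821 bases of Tnfaip3, 4 times each in Nfkb1 and Nfkbiz and 2 times in Nfkbia. The median tested gene held 1, and the median length of these 3′ UTRs was 936 bases. Neither motif count was adjusted for length. Relb, Nfkbie and Bcl3 held none, and Nfkb2 and Nfkbid 1 each. These are counts of letters, and decay was not measured.

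By a rule based on likeness alone, the tested genes nearest to Tnfaip3 over the 6 libraries were Cd69, Irs2, Nr4a2, Fosb and Rgs16. The measure was the root mean square difference of log2(FPKM + 1) taken from each gene's control mean, and it ran from 0.13 for Cd69 to 0.33 for Rgs16. Cd69 had 252, 236 and 288 FPKM in the controls against 121, 25.3 and 30.3 in ultrasound 1, 2 and 3. For Nfkbia the nearest were Jund, Socs1, Gadd45a, Rhob and Pim3, from 0.06 for Jund to 0.11 for Pim3. Jund had 262, 283 and 307 FPKM in the controls and 190, 87.0 and 114 in the ultrasound libraries.

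A further comparison asked whether other genes of the pathway differed between the groups. These were signalling genes above NF-κB, Rela and Nfkbib, and genes listed as brakes of the pathway, such as Cyld and Otulin. Their list was drawn up with earlier results of these data known, so its counts are a description. Tnfrsf1a, Tnfrsf1b and Myd88 were higher in the ultrasound libraries, and the rest did not pass. Of 34 pathway genes outside the set, all tested, 3 were higher with an adjusted p under 0.05 and 0 lower, where 6.55% and 1.56% of all genes were. The 3 are 8.82% of the list, a share near that of all genes. Tradd, Traf2, Ripk1, Birc2, Irak1 and Irak4 of the same branch did not pass, with log2 differences from -0.42 for Birc2 to 0.32 for Irak4, and branches were not compared by a test. At an unadjusted p under 0.05 there were 7 of the 34, beside 3321 of all 10655 genes tested. The median log2 difference was 0.11, beside 0.09 over all genes. Tnfrsf1a, a receptor for TNF that carries a death domain, went from 23.0, 19.6 and 20.9 FPKM in the controls to 36.5, 32.3 and 43.5, a log2 rise of 0.79 ± 0.13 (limma adjusted p 0.0304). Tnfrsf1b, the other TNF receptor, went from 42.9, 38.8 and 34.2 to 61.3, 63.3 and 93.8 FPKM, a log2 rise of 0.88 ± 0.18 (limma adjusted p 0.0389). Myd88, the adaptor of most Toll-like receptors, went from 48.8, 43.8 and 46.9 to 65.1, 65.8 and 69.4 FPKM, a log2 rise of 0.51 ± 0.08 (limma adjusted p 0.0304).

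All 3 genes were above every control already in ultrasound 1. Tnfrsf1a stood at 173%, 153% and 206% of the control mean in ultrasound 1, 2 and 3, Tnfrsf1b at 159%, 164% and 243%, and Myd88 at 140%, 141% and 149%. The macrophage and monocyte and the neutrophil markers given above were higher in the same libraries, and their part in these results was not tested. With median-of-ratios scaling 1 of the 34 passed, and 468 of all 10649 genes in that fit. Without control 1 the number was 2 (Tnfrsf1a and Myd88), and 571 of all 10568 genes. Without ultrasound 1 it was 16, and 5628 of all 10497 genes. Without control 2, control 3, ultrasound 2 or ultrasound 3 it was 0, both in the list and over all genes. In these fits 4, 6, 4 and 4 of the list had an unadjusted p under 0.05, and 1945, 2137, 1971 and 1913 of all genes.

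Of the IκB kinase, Ikbkb, its main catalytic subunit in this route, had 61.0, 62.2 and 62.7 FPKM in the controls and 65.9, 65.1 and 77.2 in the ultrasound libraries (log2 difference 0.16 ± 0.09, limma adjusted p 0.282). Chuk, the other catalytic subunit, had 21, 19.3 and 17.7 FPKM against 20.1, 13.8 and 13.3 (log2 difference -0.30 ± 0.16, limma adjusted p 0.248). Ikbkg, the regulatory subunit, had 6.80, 7.18 and 5.82 FPKM against 7.53, 5.51 and 4.56 (log2 difference -0.17 ± 0.17, limma adjusted p 0.517). For Chuk and Ikbkg ultrasound 1 was above the control mean and ultrasound 2 and 3 below it. In the T cell receptor branch Prkcq, a kinase that links the receptor to NF-κB and the most abundant pathway gene that did not pass, stood at 93.5 ± 11.4 and 86.4 ± 7.01 FPKM (SD, n = 3 each; limma adjusted p 0.539). Malt1, a protease of the same branch, is named here because of its values. It had 38.4, 39.0 and 33.3 FPKM against 32.4, 26.8 and 23.9, without overlap but with a limma adjusted p of 0.0970. Of the 34 pathway genes 2 (5.88%), Bcl10 and Malt1, had every ultrasound library below every control, where 8.96% of all genes did. For 11 (32.4%) every ultrasound library lay above every control, where 25.9% did.

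The last comparison took textbook targets of NF-κB outside the set. This list too was drawn up with earlier results of these data known, so its counts are a description. Of 27 genes 24 were tested, since Il2, Csf2 and Tnip3 were below the filter, and 3 fell with an adjusted p under 0.05 while 0 rose, where 1.56% and 6.55% of all genes did. As many had a log2 difference below 0 as above it, 12 each, with a median of -0.0034. Gadd45b, a stress-response gene, fell from 92.6, 100 and 141 FPKM in the controls to 62.7, 20.8 and 24.5 in ultrasound 1, 2 and 3, a log2 difference of -1.75 ± 0.40 (limma adjusted p 0.0475). Irf1, a transcription factor of interferon responses, fell from 192, 194 and 194 FPKM to 130, 107 and 126, a log2 difference of -0.67 ± 0.10 (limma adjusted p 0.0304). Irf4, a transcription factor induced by T cell receptor signals, fell from 27.3, 22.8 and 25.7 FPKM to 16.5, 14.3 and 14.7, a log2 difference of -0.70 ± 0.10 (limma adjusted p 0.0304).

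Irf1 stood at 67.4%, 55.6% and 65.0% of the control mean in ultrasound 1, 2 and 3, and Irf4 at 65.2%, 56.7% and 58.3%, with ultrasound 1 close to the others. Gadd45b stood at 56.4%, 18.7% and 22.0%, with ultrasound 1 apart. The immediate early genes were lower in the same libraries, as given above, and their part in these results was not tested. The most abundant target that did not pass was Ccl5, a chemokine of cytotoxic T cells, at 682, 601 and 625 FPKM in the controls and 516, 994 and 1035 in the ultrasound libraries (limma adjusted p 0.376). Without control 1 the number of targets that passed was 2 (Irf1 and Irf4), and 571 of all 10568 genes. Without ultrasound 1 it was 12, and 5628 of all 10497 genes. Without control 2, control 3, ultrasound 2 or ultrasound 3 it was 0, both in the list and over all genes. In these fits 4, 6, 6 and 5 targets had an unadjusted p under 0.05, and 1945, 2137, 1971 and 1913 of all genes.

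**Figure D4:**
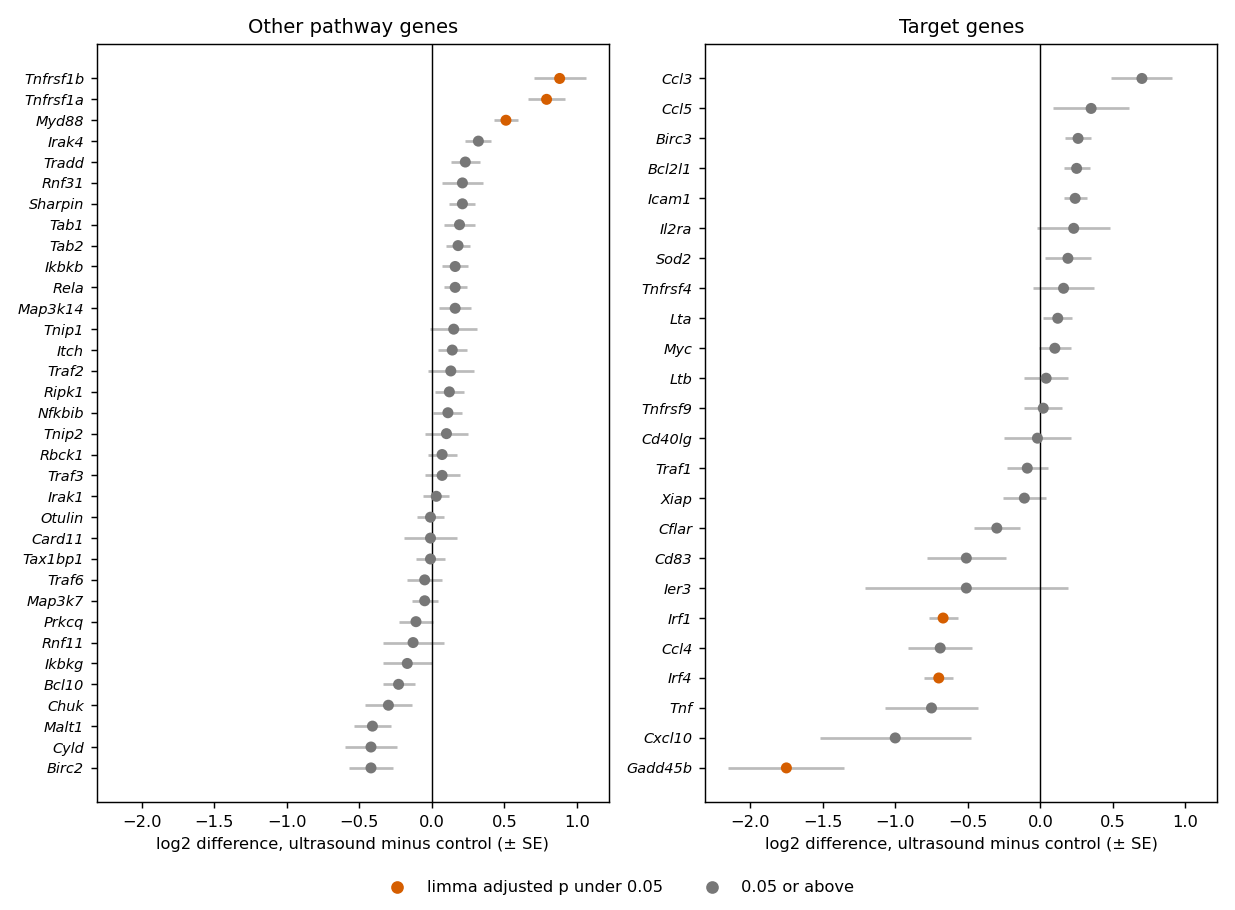
Log2 difference between ultrasound and control libraries with its standard error for the 34 other pathway genes (left) and the 24 tested target genes (right), on the log2(FPKM + 1) scale. Orange points, Tnfrsf1a, Tnfrsf1b and Myd88 on the left and Gadd45b, Irf1 and Irf4 on the right, have a limma adjusted p under 0.05.

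Some other targets, named here because of their values, differed mainly within the ultrasound group. Tnf, a cytokine gene, had 37.1, 32.3 and 38.8 FPKM in the controls, 36.8 in ultrasound 1 and 14.4 and 17.3 in ultrasound 2 and 3. Ier3, a stress-response gene, had 31.3, 21.2 and 27.6 FPKM in the controls, 65.3 in ultrasound 1 and 8.12 and 10.7 in ultrasound 2 and 3. Neither passed, at limma adjusted p 0.164 and 0.629. Every ultrasound library lay above every control for 4 of the 24 targets (16.7%), Ccl3, Icam1, Birc3 and Bcl2l1, where 25.9% of all genes did, and none of the 4 passed.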

How the data were processed

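RNA from sorted splenic CD8 T cells was sequenced in 6 libraries, 3 per group, grouped by the sample titles. The submitters' processing notes name HISAT2, HTSeq, DESeq2, R 3.2.0 and mm10, with no roles or parameters. The authors' table gives FPKM values per library, per the file headers. Per the file headers it also holds signal columns (the authors' means of DESeq2 normalized counts), their fold change (a ratio), its log2, and the authors' p-values and q-values. A second deposited table, of filtered rows, was not used here.

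FPKM values are not counts, so limma 3.58.1 (trend, robust) in R 4.3.3 was run on log2(FPKM + 1), over the 10655 genes that reached an FPKM of 1 in 3 libraries or more. P-values are two-sided, adjusted by Benjamini-Hochberg over all genes tested, with a threshold of 0.05. The log2(FPKM + 1) scale understates the change of low genes. Whole reads were recovered from the linear relation between FPKM and both group means: all 37153 values of 0.5 to 100 reads lay within 0.05 of a whole number. Precision is limited by 3 libraries per group. The recovery and the fit were tested on simulated data.

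Members and lists were chosen with earlier results of these data known. Besides the 10 genes, named genes are Rela, Nfkbib, the IκB kinase genes, pathway and target genes that passed (up to 6 per direction), the most abundant of each list that did not, and the 5 genes most like Tnfaip3 and Nfkbia. The marker lists of CD4 T cells, dendritic cells, NK cells, erythroid cells and platelets summed to 146 to 171, 17.5 to 37.0, 39.3 to 47.9, 40.2 to 59.2 and 1.03 to 2.75 FPKM in controls and 94.6 to 169, 21.7 to 63.1, 33.0 to 62.7, 22.7 to 51.7 and 1.78 to 4.19 in ultrasound libraries. Alternatives covered the pseudocount, filters, scaling, the robust option, a replicate block, each library left out, a term for ultrasound 2 and 3, voom on recovered reads and the authors' deposited values.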

Additional observations from a re-analysis of the deposited data

How the results depend on the processing

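Of 160 results for the 10 genes under 16 alternatives, 154 kept their direction, although some alternatives could not change it. The exceptions were near 0 and the cause was not tested: Relb with median-of-ratios size factors (-0.0093) and in the authors' deposited table (-0.014), Nfkb2 without control 1 (0.0029) or ultrasound 1 (0.012), and Nfkbie without control 3 (0.045) or ultrasound 1 (0.12). Over the libraries left out Nfkb2 ran from -0.054 to 0.012 and Nfkbie from -0.11 to 0.12. Of the 208 results for the other named genes 202 kept their direction. In both counts the changed filters, the robust option and the replicate block could not alter a log2 difference, so their directions were fixed in advance. Nor could leaving out 1 library reverse a gene whose groups did not overlap. An adjusted p under 0.05 was lost in 50 results, all of Tnfrsf1a, Tnfrsf1b, Myd88, Gadd45b, Irf1 or Irf4. Only these genes had passed, so the 50 are not a share of the 208 but of the 16 alternatives for each of these genes. It was gained in 4 results (Ccl5, Chuk, Ikbkg and Rela), each without ultrasound 1. Reversed were Nfkbib with median-of-ratios size factors (-0.0058), with a term for ultrasound 2 and 3 (-0.039) and in the authors' deposited table (-2.1e-05), and, with that term, Ccl5 (-0.30), Chuk (0.06) and Ikbkg (0.17).

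The count of genes with a limma adjusted p under 0.05 was 864 of all genes, 3 of 34 pathway genes and 3 of 24 targets. For the 10 genes, which were chosen with this contrast known, no such count is given. With no filter on low values the count was 0 of each, with 4216, 6 and 9 at an unadjusted p under 0.05. With median-of-ratios size factors it was 468 (280 higher and 188 lower, against 698 and 166) of all genes and 1 pathway gene. Upper-quartile factors gave 363 higher and 214 lower of all genes. Voom on recovered reads gave 573 (353 higher and 220 lower) of all genes. With a term for ultrasound 2 and 3 it was 150 of all genes, 0 pathway genes and 1 target. At an unadjusted p under 0.05 that term left 2352 of all genes and 5 pathway genes. The authors' deposited table has 1745 of the tested genes (921 higher and 824 lower) and 5 pathway genes with q under 0.05. Leaving out 1 library gave from 0 to 5628 of all genes, from 0 to 16 pathway genes and from 0 to 12 targets, the highest each without ultrasound 1. Apart from the libraries left out, the cause was not tested.

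Sharing a replicate number did not pair the libraries: their deviations from the group means had correlations of -0.0406, 0.0513 and 0.0578 within a number. In the fit with a replicate block 0 of all genes, 0 pathway genes and 0 targets passed limma, with 3249, 7 and 8 at an unadjusted p under 0.05. Depth was 35024080 to 38113103 reads per library, and its effect on the calls was not tested.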
